A study of Mus musculus with 8 samples.

Results

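Semaphorins, plexins, neuropilins, Eph receptors, ephrins, Robo receptors and Slits, the gene families first known from axon guidance, were followed in Langerhans cells, the dendritic cells that live in the epidermis. Members were taken by symbol among protein-coding genes. The rule found 60 genes in the GENCODE M21 annotation, of which 50 had a row among the 25247 genes of the count table. The other 10 (Epha3, Epha5, Epha6, Epha8, Epha10, Ephb2, Robo3, Robo4, Sema3g and Sema5b) were not analysed here. The 50 comprise 18 semaphorins, 9 plexins, 2 neuropilins, 8 Eph receptors, 8 ephrins, 2 Robo receptors and 3 Slits.

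The study compared Langerhans cells of EZH2 -/- mice (KO) with those of wild-type mice (WT), both on the C57BL/6 strain background, by bulk RNA sequencing of 8 libraries. Cells were sorted from ear epidermis as viable EpCAM+ CD24+ cells positive for CD45 and MHC class II, without Ly6G or CD103. Ezh2 encodes the methyltransferase that places the repressive H3K27me3 mark. The labels give no treatment, time, age, sex or number of animals per library, and no promoter or Cre line behind the deletion. Separate animals are not stated for the libraries either. P-values therefore measure only how much these libraries vary, and that variation may be technical.

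The genotype of 4 libraries is in dispute within the labels. RMN038 and RMN039 are KO, and RMN030 and RMN031 are WT, by the library codes of both title and description. By title, RMN032 and RMN033 are KO and RMN036 and RMN037 are WT. By description these 4 are exchanged, so that every library of the later code run (RMN036 to RMN039) is KO and every library of the earlier run (RMN030 to RMN033) is WT. A run here means only a stretch of consecutive codes. Both readings are given side by side with neither preferred. In the description reading genotype and run cannot be told apart, whereas under the title reading each run holds 2 KO and 2 WT libraries. Ezh2 itself was at 10.5 to 15.2 CPM (counts scaled to the library total) in libraries labelled KO by title, against 15.7 to 22.4 CPM in those labelled WT. By description it was at 10.5 to 19.0 CPM in libraries labelled KO, against 14.9 to 22.4 CPM in those labelled WT, and those groups overlapped.

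Library totals ranged from 11051402 to 18966195 counts. Mitochondrial genes took 3.76 to 4.03% of counts in the later run, against 1.02 to 1.87% in the earlier run. The labelled cell type was borne out by Cd207, the Langerhans cell lectin langerin, which is not among the sort markers, at 9706 to 11963 CPM. Epcam was at 558 to 672 CPM and the MHC class II gene H2-Ab1 at 21175 to 29585 CPM. Both belong to markers used in the sort, so the sort itself selected for them. Keratinocyte markers, 15 of 16 in the table, summed to 15098 to 19462 CPM over the 8 libraries. T cell markers summed to 345 and 328 CPM in RMN030 and RMN031, against 39.3 to 52.8 CPM in the other 6, so the title and description results were also computed without those 2 libraries. The other fits cannot be made without them, since they are the whole WT side of the undisputed set and of the earlier run by title. In bulk samples, fewer cells of a type and less RNA per cell cannot be told apart.

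Semaphorins are secreted (class 3) or membrane-bound (classes 4 to 7) ligands, and plexins are their receptors, with neuropilins as co-receptors for the secreted class. Plexins act through small GTPases on the cytoskeleton and on integrins. Eph receptors are receptor tyrosine kinases whose ligands, the ephrins, are themselves held on the membrane, so that both partners signal at cell contacts. Slits are secreted ligands of Robo receptors. In mice, semaphorins and plexins are also known from dendritic cells, where plexin-A1 takes part in contacts with T cells and in migration toward lymphatics. Eph receptors and ephrins are prominent in epidermal keratinocytes, the cells that surround Langerhans cells.

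The 3 members that passed the test in any of the 4 main fits were the receptors Epha4 and Epha1 and the ligand Slit3. Their promoters are shown because these genes carry the differences described below, and because the windows differ in their number of CG dinucleotides. Each window runs from 250 bases before to 50 bases after the annotated start, 5′ to 3′ on the gene's strand, from RefSeq on GRCm38.p6. Capitals mark each CG, which reads the same on both strands. The windows are chr1:77515039-77515338 (minus strand) for Epha4, chr6:42373219-42373518 (minus strand) for Epha1 and chr11:35121206-35121505 (plus strand) for Slit3.
Epha4: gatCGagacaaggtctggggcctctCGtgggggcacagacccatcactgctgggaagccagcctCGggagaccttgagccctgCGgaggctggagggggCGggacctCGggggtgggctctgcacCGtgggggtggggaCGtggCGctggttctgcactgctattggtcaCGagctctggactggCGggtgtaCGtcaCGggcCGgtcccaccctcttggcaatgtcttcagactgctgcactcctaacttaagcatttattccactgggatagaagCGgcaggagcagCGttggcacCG
Epha1: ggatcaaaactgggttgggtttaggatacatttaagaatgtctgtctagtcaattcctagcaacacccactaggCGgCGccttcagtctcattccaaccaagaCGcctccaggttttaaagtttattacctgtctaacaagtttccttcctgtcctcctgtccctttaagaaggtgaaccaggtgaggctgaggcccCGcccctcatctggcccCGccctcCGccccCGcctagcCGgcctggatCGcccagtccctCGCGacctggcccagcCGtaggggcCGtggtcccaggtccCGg
Slit3: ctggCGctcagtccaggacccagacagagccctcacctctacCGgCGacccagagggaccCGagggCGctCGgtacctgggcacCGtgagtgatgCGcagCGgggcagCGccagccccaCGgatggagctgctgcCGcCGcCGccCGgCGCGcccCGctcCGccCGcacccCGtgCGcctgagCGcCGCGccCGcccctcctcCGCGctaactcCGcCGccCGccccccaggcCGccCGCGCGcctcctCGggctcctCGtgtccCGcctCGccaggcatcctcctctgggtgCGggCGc

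The Slit3 window held 41 CG with 78.3% G or C, a count reached by 3.46% of the 32851 promoter windows of this length in the table. The GENCODE M21 start of Slit3, 35121224, lies near the upstream end of this window. Most of the window is thus inside the gene by that annotation. Epha4 held 17 and Epha1 held 14, counts reached by 31.4% and 36.3% of windows. The median was 20 over the first window of the 35 tested members with one, and 7 over all windows. The data hold no mark, methylation or binding over these windows.

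Levels were compared between genes per unit of exon length, as TPM (length-scaled abundance, computed from the counts). The ephrin ligand Efna1 stood highest at 201 ± 34.5 TPM (SD, n = 8 libraries). Next came plexin-A1 (Plxna1), a receptor of class 3 and class 6 semaphorins, at 86.4 ± 11.2 TPM, and plexin-B2 (Plxnb2), a receptor of class 4 semaphorins, at 82.2 ± 6.3 TPM. Epha2, a receptor of ephrin-As, was at 69.2 ± 11.7 TPM, and Sema6d, a membrane ligand of plexin-A1, at 65.96 ± 7.7 TPM. From Plxna1 to Sema6d the ranges over libraries of neighbours in this order overlapped, whereas the lowest Efna1 library (135 TPM) was above the highest Plxna1 library (100.0 TPM). Efna1, Plxna1, Plxnb2 and Epha2 together held 48.9% of the TPM of all members.

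Among ligands, 18 semaphorins held 26.0% of member TPM and 8 ephrins 27.9%. After Sema6d came Sema7a, a lipid-anchored ligand of plexin-C1 and integrins, at 43.8 ± 8.6 TPM, and the secreted Sema3c at 29.7 ± 3.9 TPM. Behind Efna1 came Efnb1, a transmembrane ephrin, at 15.9 ± 6.9 TPM and Efna5 at 15.4 ± 4.3 TPM. Slit3, the only Slit that could be tested, was at 1.27 ± 1.33 TPM.

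Among receptors, 9 plexins held 25.1% and 8 Eph receptors 18.9%. The third plexin was Plxnc1, the Sema7a receptor, at 26.7 ± 2.1 TPM. Behind Epha2 came Ephb6, an Eph receptor without kinase activity, at 39.3 ± 7.3 TPM and Epha1 at 26.8 ± 11.9 TPM. Neuropilin-2 (Nrp2) was at 9.77 ± 1.71 TPM and neuropilin-1 (Nrp1) at 2.59 ± 1.37 TPM. Robo1 was at 3.64 ± 1.41 TPM and Robo2 at 0.879 ± 0.309 TPM. Ligand and receptor of 2 known pairs, Sema6d with Plxna1 and Sema7a with Plxnc1, were thus both among the 10 highest members in the same sorted population. Keratinocyte markers summed to 15098 to 19462 CPM in that population. Which cells the levels of the guidance genes came from was not tested.

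**Figure D1:**
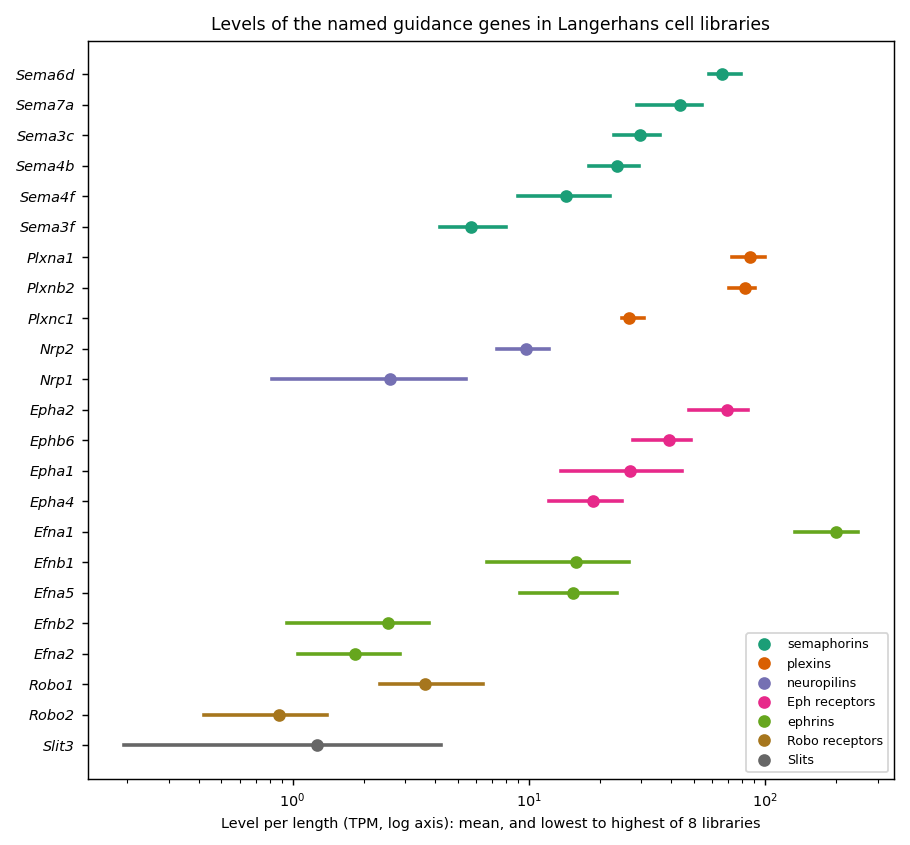
Level per exon length of the named guidance genes, in TPM on a log axis, coloured by family. Points are means over 8 libraries and lines run from the lowest to the highest library, with Efna1 at 135 to 247 TPM and Slit3 and Robo2 near 1 TPM.

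On the CPM scale, on which tests were run, 27 of the 50 members averaged above 10 CPM, 11 averaged 1 to 10 CPM and 12 were below 1 CPM. A count was present in every library for 39 members. The filter on low counts kept 40 members in the title and description fits. The 10 it removed averaged at most 0.525 CPM, whereas the lowest member kept averaged 0.810 CPM. These 10 were Epha7, Ephb1, Plxna4, Plxnb3, Sema3a, Sema4g, Sema6b, Sema6c, Slit1 and Slit2.

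By description code, which is also the later against the earlier run, Epha4 and Slit3 were higher and Epha1 was lower in KO. These were 3 of 40 members tested by edgeR's quasi-likelihood test, with Benjamini-Hochberg adjustment over all 14630 genes and a threshold of 0.05. The background was 1.43% of all genes higher and 0.595% lower. The 2 Eph receptors thus moved in opposite directions.

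Epha4 (ENSMUSG00000026235, GRCm38 chromosome 1, 77367185 to 77515088, minus strand) is an Eph receptor that binds ephrin-As and ephrin-Bs. It had 68.7 and 75.2 CPM in RMN038 and RMN039 and 63.6 and 75.8 CPM in RMN036 and RMN037. In the earlier run it had 50.2 and 41.0 CPM in RMN032 and RMN033 and 35.9 and 40.8 CPM in RMN030 and RMN031. Every later library lay above every earlier one, whichever genotype the title gives it. Marker sums of red blood cells, mast cells and fibroblasts separated the runs in the same direction. Those of keratinocytes, T cells, endothelial cells, melanocytes, Schwann cells and of monocytes and macrophages overlapped between runs. Of 9 monocyte and macrophage markers, however, Ccr2, Cd163, F13a1 and Lyz2 were higher in every later library than in every earlier one. Lyz2 was at 114 to 158 CPM in the later run, against 46.1 to 78.7 CPM in the earlier run. C1qa was lower, at 47.1 to 76.9 CPM, against 87.0 to 134 CPM, and the other 4 overlapped. Red blood cell markers summed to 580 to 1355 CPM in the later run, against 122 to 226 CPM in the earlier run, and mast cell markers to 52.6 to 71.8 CPM, against 31.8 to 44.4 CPM. Of 7 mast cell markers, 5 were higher in every later library than in every earlier one and 2 overlapped. Cpa3 was at 5.26 to 13.3 CPM in the later run, against 0 to 1.62 CPM. Kit overlapped, at 18.2 to 30.9 CPM, against 26.2 to 37.3 CPM in the earlier run. The part of these markers in the Epha4 difference, and that of the fibroblast markers given with Slit3, was not tested. By description the mean was 70.8 ± 5.8 CPM in KO and 42.0 ± 6.0 CPM in WT (SD, n = 4 each). The difference was 1.74-fold, or 0.80 on the log2 scale (SE 0.12, edgeR adjusted p = 0.0046). The exact two-sided permutation test over libraries gave an unadjusted p = 0.0286, the smallest possible for 4 against 4. Any gene whose groups do not overlap gets this value, and 8.82% of all genes tested by description had such groups. All 14 alternative settings kept the call, with log2 fold changes of 0.70 to 0.88. The lowest came without RMN030 and RMN031, at an adjusted p of 0.0469. By title Epha4 averaged 58.8 ± 15.9 CPM in KO and 54.0 ± 18.9 CPM in WT (SD, n = 4 each). That log2 difference was 0.12, with an interval (2 SE either side) from −0.40 to 0.64. The later run exceeded the earlier by 0.73 within title KO and by 0.86 within title WT on the log2 scale. Neither passed the edgeR test of 2 against 2 libraries (adjusted p = 0.0839 and 0.0542). Both contrasts came from a fit to all 8 libraries, which shares its estimate of the spread over the groups of title genotype and run.

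Epha1 (ENSMUSG00000029859, chromosome 6, 42358487 to 42373268, minus strand) is an ephrin-A receptor known from epithelia. It had 26.4 and 20.7 CPM in RMN038 and RMN039 and 24.6 and 35.2 CPM in RMN036 and RMN037. Among earlier libraries it had 62.0 and 61.7 CPM in RMN032 and RMN033 and 36.7 and 40.3 CPM in RMN030 and RMN031. The runs did not overlap, and RMN032 and RMN033 stood clear above the other 6 libraries. By description it averaged 26.7 ± 6.1 CPM in KO and 50.2 ± 13.6 CPM in WT (SD, n = 4 each). The log2 fold change was −0.86 (SE 0.20, edgeR adjusted p = 0.0443), which is 1.82-fold lower. The call was lost under limma voom (adjusted p = 0.0504) and without each of RMN032, RMN033, RMN036, RMN038 and RMN039 (adjusted p up to 0.150 over 14 alternatives), while the log2 fold change stayed between −1.15 and −0.75. Leaving out RMN030 and RMN031 gave −1.15 with an adjusted p of 0.0149. By title it averaged 42.7 ± 22.3 CPM in KO and 34.2 ± 6.8 CPM in WT. Later minus earlier, the log2 difference was −1.32 (SE 0.21, edgeR adjusted p = 0.0173) within title KO, where 1.09% of all genes passed. Within title WT it was −0.37 (SE 0.21, adjusted p = 0.576), where 0.725% passed. Both values came from the fit to all 8 libraries described for Epha4. Of 15 keratinocyte markers, 2 were lower in every later library than in every earlier one, 2 were higher and 11 overlapped, and their sum overlapped as well. Trp63, a keratinocyte transcription factor, was at 165 to 249 CPM in the later run, against 271 to 442 CPM in the earlier run, and Krt15 was lower too. Krt79 went the other way, at 115 to 221 CPM in the later run, against 59.4 to 94.9 CPM in the earlier run, as did Krt1. Their part in the Epha1 difference was not tested. Exons of the antisense neighbour Zyx cover 6.01% of Epha1's exon bases, and the strand setting of the counting was not given in the sources used here.

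Slit3 (ENSMUSG00000056427, chromosome 11, 35121224 to 35708507, plus strand) is a secreted Robo ligand. It had 3.98 and 3.89 CPM in RMN038 and RMN039 and 1.75 and 9.77 CPM in RMN036 and RMN037. Earlier libraries had 0.919 and 0.422 CPM in RMN032 and RMN033 and 1.07 and 1.45 CPM in RMN030 and RMN031. The later run was higher throughout, but its lowest library came near the highest earlier one and RMN037 stood apart. By description it averaged 4.85 ± 3.44 CPM in KO and 0.966 ± 0.427 CPM in WT (SD, n = 4 each), 5.14-fold (log2 2.36, SE 0.55, edgeR adjusted p = 0.0446). Without RMN037 the log2 fold change was 1.77 with an adjusted p of 0.181. Over its 14 alternatives the adjusted p ran from 0.0019 to 0.181, and leaving out any library other than RMN036 ended the call. It was also lost under limma voom (adjusted p = 0.135) and without both RMN030 and RMN031 (adjusted p = 0.123). Summed fibroblast markers were at 119 to 199 CPM in the later run, against 37.0 to 62.8 CPM in the earlier run. All 7 were in the table, with Pdgfra at 0 to 2.56 CPM. Their part in the Slit3 difference was not tested. By title Slit3 averaged 2.30 ± 1.90 CPM in KO and 3.51 ± 4.18 CPM in WT.

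**Figure D2:**
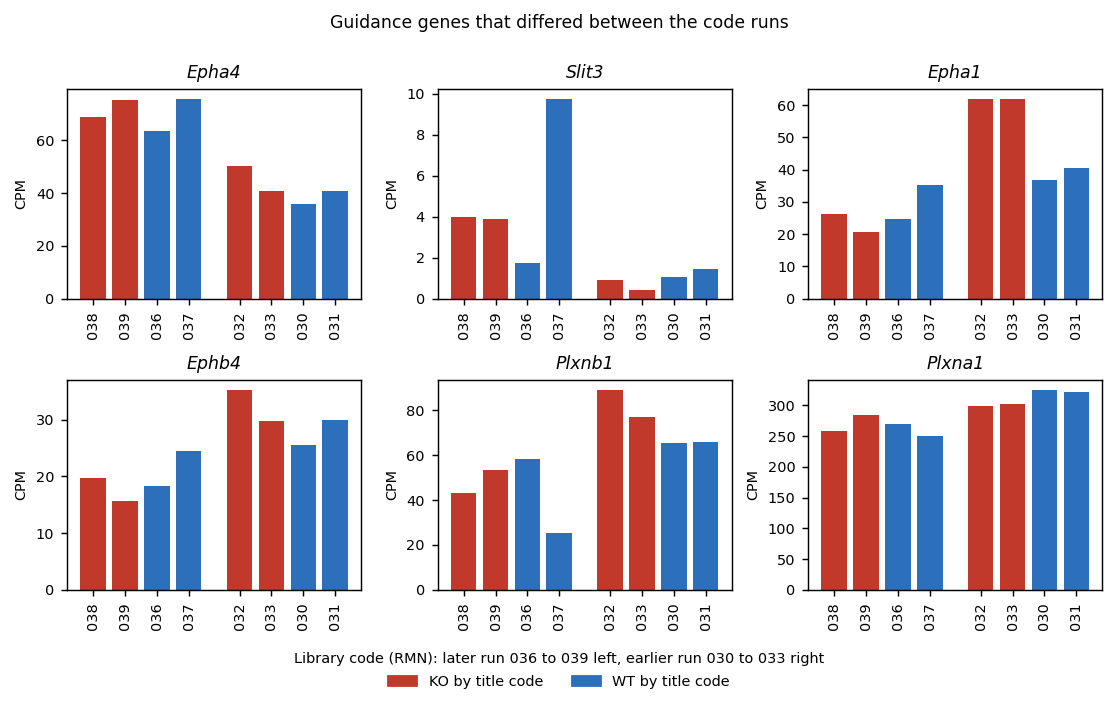
CPM per library of 6 guidance genes in the later run (left) and the earlier run (right), with bars coloured by the title genotype. Epha4 and Slit3 are higher and Epha1 is lower in all 4 later libraries, in both colours.

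Other receptors separated by run without passing the edgeR test. Groups did not overlap for 6 of 40 members by description, against 8.82% of all genes tested. Those 6 were the 3 above and Ephb4, Plxnb1 and Plxna1, all 3 lower in KO. Ephb4, the ephrin-B2 receptor, had 19.7, 15.7, 18.3 and 24.5 CPM in RMN038, RMN039, RMN036 and RMN037, against 35.3, 29.8, 25.6 and 29.9 CPM in RMN032, RMN033, RMN030 and RMN031. Its log2 fold change was −0.58 (edgeR adjusted p = 0.113). Plexin-B1, the Sema4d receptor, averaged 45.1 ± 14.6 CPM in KO and 74.4 ± 11.1 CPM in WT (log2 −0.68, adjusted p = 0.148). Plexin-A1 averaged 265 ± 14.9 CPM in KO and 312 ± 13.1 CPM in WT, a small separation (log2 −0.19, adjusted p = 0.349). Exons of an antisense gene cover 10.7% of Plxna1's exon bases. DESeq2 called 6 of 40 members in this contrast, where it called 4.51% of all genes. Beside the 3 above these were Ephb4 (adjusted p = 0.0310), Plxnb1 (0.0419) and Robo1 (0.0482), all lower in KO. Ephb4, Plxnb1 and the further genes named in the next paragraph were chosen after their values were seen.

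The remaining members gave smaller or less even differences in the description fit. Robo1, a Slit receptor, had 14.8 to 19.3 CPM in KO, against 19.2 to 37.4 CPM in WT (log2 −0.65, edgeR adjusted p = 0.139). Sema4f, a transmembrane semaphorin, was at 18.4 to 28.7 CPM in KO, against 27.0 to 42.8 CPM in WT (log2 −0.59, adjusted p = 0.161). Plexin-D1, the Sema3e receptor, was at 9.45 to 14.5 CPM in KO, against 6.86 to 9.59 CPM in WT (log2 0.64, adjusted p = 0.202). Sema4a, which acts on T cells from dendritic cells in mice, was at 30.1 to 45.4 CPM in KO, against 22.1 to 32.95 CPM in WT (log2 0.47, adjusted p = 0.235). Epha2 was at 115 to 152 CPM in KO, against 79.4 to 131 CPM in WT (log2 0.38, adjusted p = 0.245). The abundant Plxnb2, Plxnc1 and Efna1 had log2 fold changes of 0.02 to 0.05. Over the 40 members, 24 log2 fold changes were positive and 16 negative, whereas 48.9% of all genes had a positive one. The median was 0.10 over the members, against −0.01 over all genes. At an unadjusted p under 0.05 there were 12 members (30%), against 12.6% of all genes.

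**Figure D3:**
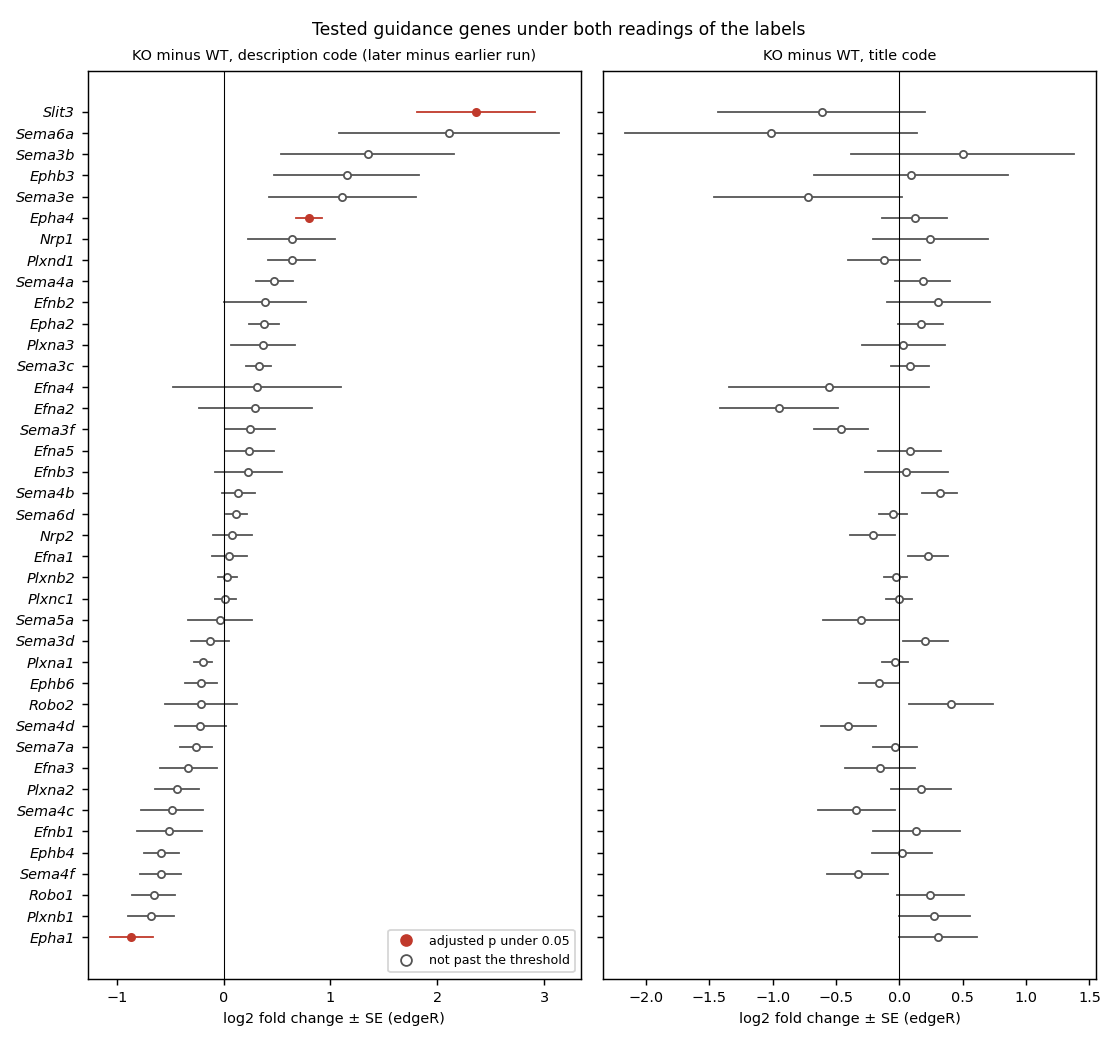
Log2 fold change, KO minus WT, of the 40 tested guidance genes by description code (left) and by title code (right), with lines of 1 SE either side, ordered by the description values. Filled points mark the 3 genes past the threshold by description (Slit3 at 2.36, Epha4 at 0.80 and Epha1 at −0.86), and no gene passed by title.

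By title code 0 of 40 members passed the edgeR test, and 0% of all 14630 genes did. At an unadjusted p under 0.05 there was 1 member (2.5%), against 4.59% of all genes. DESeq2, which called 0.13% of all genes, and limma voom, which called 0, also called 0 members. The smallest p belonged to Sema4b, a transmembrane class 4 semaphorin. It had 52.5 and 63.5 CPM in RMN038 and RMN039 and 51.7 and 51.6 CPM in RMN032 and RMN033, all KO by title. The WT libraries by title had 41.3 and 46.5 CPM in RMN036 and RMN037 and 37.0 and 50.8 CPM in RMN030 and RMN031. The groups were separate by less than 1 CPM, with a log2 difference of 0.32 (SE 0.14) and an edgeR adjusted p of 0.998. Efna2, a low ephrin-A, was at 0.797 to 1.35 CPM in KO, against 1.53 to 2.15 CPM in WT (log2 −0.95, SE 0.46, adjusted p = 0.998). Sema3f, a secreted neuropilin-2 ligand, was at 7.72 to 11.0 CPM in KO, against 10.8 to 15.8 CPM in WT (log2 −0.46, SE 0.21, adjusted p = 0.998). Sema4b and Efna2 were the 2 of 40 members whose title groups did not overlap, against 2.94% of all genes. For abundant members the title intervals (2 SE either side) were narrow on the log2 scale. They ran from −0.24 to 0.17 for Plxna1, from −0.21 to 0.15 for Plxnb2 and from −0.27 to 0.17 for Sema6d.

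In the 4 undisputed libraries genotype again coincides with run, and also with the T cell markers, which summed to 39.3 and 46.6 CPM in KO, against 345 and 328 CPM in WT. Here 0 of 38 members passed the edgeR test, against 0.794% of all 14727 genes. Unadjusted, 9 members (23.7%) had p under 0.05, against 11.3% of all genes. Epha4 came nearest, at 71.9 ± 4.6 CPM in KO and 38.4 ± 3.5 CPM in WT (SD, n = 2 each). KO exceeded WT by 0.95 on the log2 scale (SE 0.19, edgeR adjusted p = 0.0529), and the adjusted p ran from 0.00083 to 0.0825 over 8 alternatives. DESeq2 called it alone among members, where 2.07% of all genes were called. Limma voom also called it, among 134 of all 14727 genes. Sema4f had 18.4 and 21.4 CPM in KO, against 42.8 and 33.2 CPM in WT (log2 −0.89, SE 0.25, edgeR adjusted p = 0.188). Over 8 alternatives its adjusted p ran from 0.0304 without RMN031 to 0.530 without RMN030. Epha2 had 115 and 152 CPM in KO, against 103 and 79.4 CPM in WT (log2 0.59, SE 0.20, adjusted p = 0.272). It ran from 0.36 (adjusted p = 0.646) without RMN039 to 0.81 (adjusted p = 0.0110) without RMN030, and was 0.38 without RMN031. These libraries are part of both other readings, so their agreement with either is built in. Epha1 had a log2 fold change of −0.66 (adjusted p = 0.305) and Slit3 one of 1.68 (adjusted p = 0.327).

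The title reading allows KO and WT to be set against each other within each run, and the difference between the 2 runs to be tested. By edgeR 0 of 41 members passed that test, against 0.0186% of all 16146 genes. At an unadjusted p under 0.05 there were 9 members (21.95%), against 7.93% of all genes. DESeq2, at 0.601% of all genes, and limma voom, at 3 genes in all, called 0 members. Without the filter on low counts edgeR called 1 member, Efnb1, and 0.705% of all genes. The WT cell of the earlier run consists of RMN030 and RMN031, the libraries with high T cell markers. The 3 members with the smallest p were all ephrins.

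Efnb2, the transmembrane ligand of EphB4, had 5.75 and 5.79 CPM in KO of the later run (RMN038 and RMN039), against 9.48 and 7.79 CPM in WT of that run (RMN036 and RMN037). In the earlier run it had 7.78 and 9.28 CPM in KO (RMN032 and RMN033), against 2.37 and 3.29 CPM in WT (RMN030 and RMN031). KO was thus below WT in the later run and above WT in the earlier run, without overlap in either. The log2 differences were −0.55 (SE 0.34, edgeR adjusted p = 0.736) and 1.54 (SE 0.35, edgeR adjusted p = 0.193), so neither passed the test. The difference between them was −2.09 (SE 0.48, edgeR adjusted p = 0.287).

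Efnb1 followed the same order, with 14.2 and 8.87 CPM in KO of the later run, against 15.6 and 26.4 CPM in WT of that run. In the earlier run it had 32.4 and 29.1 CPM in KO, against 18.7 and 15.5 CPM in WT. The difference between runs was −1.63 (SE 0.44, edgeR adjusted p = 0.373) on the log2 scale. The adjusted p ran from 0.0115, without the filter, to 0.779 over 12 alternatives.

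Efna1, the highest member, went the other way. It had 154 and 174 CPM in KO of the later run, against 94.7 and 124 CPM in WT of that run. In the earlier run it had 122 and 138 CPM in KO, against 153 and 130 CPM in WT, and those overlapped. The difference between runs was 0.78 (SE 0.23, edgeR adjusted p = 0.412). Nrp2 had the same sign, with 47.2 and 44.9 CPM in KO of the later run, against 45.6 and 36.3 CPM in WT. For the earlier run, Nrp2 had 35.8 and 31.2 CPM in KO, against 52.8 and 49.2 CPM in WT (difference between runs 0.85, adjusted p = 0.429).

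Of the other members with an unadjusted p under 0.05, all 5 had a negative difference between runs. The log2 values were −0.95 for Epha1, −0.85 for Robo1, −1.25 for Sema5a, −0.40 for Sema6d and −0.72 for Sema3d, with edgeR adjusted p-values of 0.441 to 0.570. Sema5a and Sema3d were chosen after their values were seen. Over all 41 members, 28 differences were negative and 13 positive, whereas 49.8% of all genes had a positive one. The median was −0.32 over the members, against −0.00 over all genes. Members higher in KO of the earlier run and lower in KO of the later run numbered 17, and 7 had the opposite order. Another 9 were higher in KO of both runs and 8 were lower in KO of both. Over all genes, 48.7% were higher in KO of the earlier run and 49.7% in KO of the later run. How many of all genes took each of these orders was not counted. The summed keratinocyte markers were also higher in KO of the earlier run and lower in KO of the later run. They were at 16073 and 16249 CPM in KO of the later run, against 17690 and 18156 CPM in WT of that run. Among earlier libraries they were at 19132 and 19462 CPM in KO, against 17495 and 15098 CPM in WT. Single markers did not all follow the sum. Krt5 did, at 3234 and 3345 CPM in KO, against 3471 and 3827 CPM in WT of the later run. Its earlier values were 3788 and 3951 CPM in KO, against 3726 and 3237 CPM in WT. Perp was higher in KO of the later run (1480 and 1462 CPM, against 1334 and 1346 CPM). Krt10 was lower in KO of the earlier run (226 and 182 CPM, against 257 and 277 CPM). The part of keratinocyte markers in the differences of the members was not tested.

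**Figure D4:**
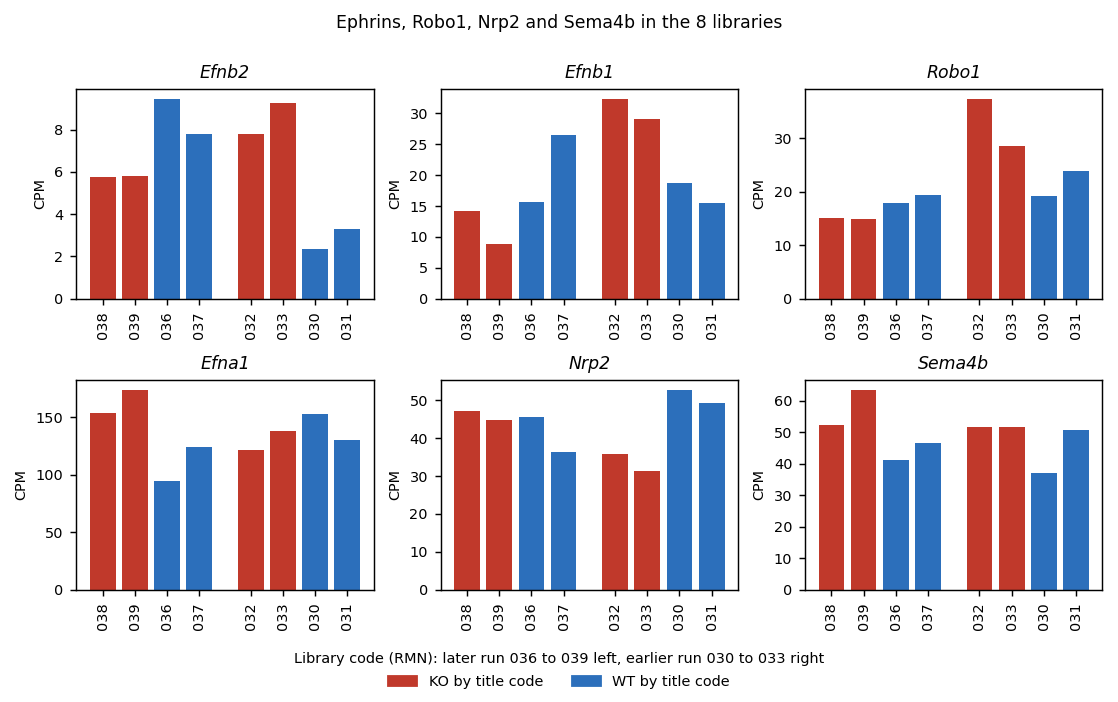
CPM per library of Efnb2, Efnb1, Robo1, Efna1, Nrp2 and Sema4b, with the later run left and the earlier run right and KO by title left of WT in each. Efnb2 is lower in KO of the later run and higher in KO of the earlier run, whereas Sema4b is higher in KO of both.

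**Figure D5:**
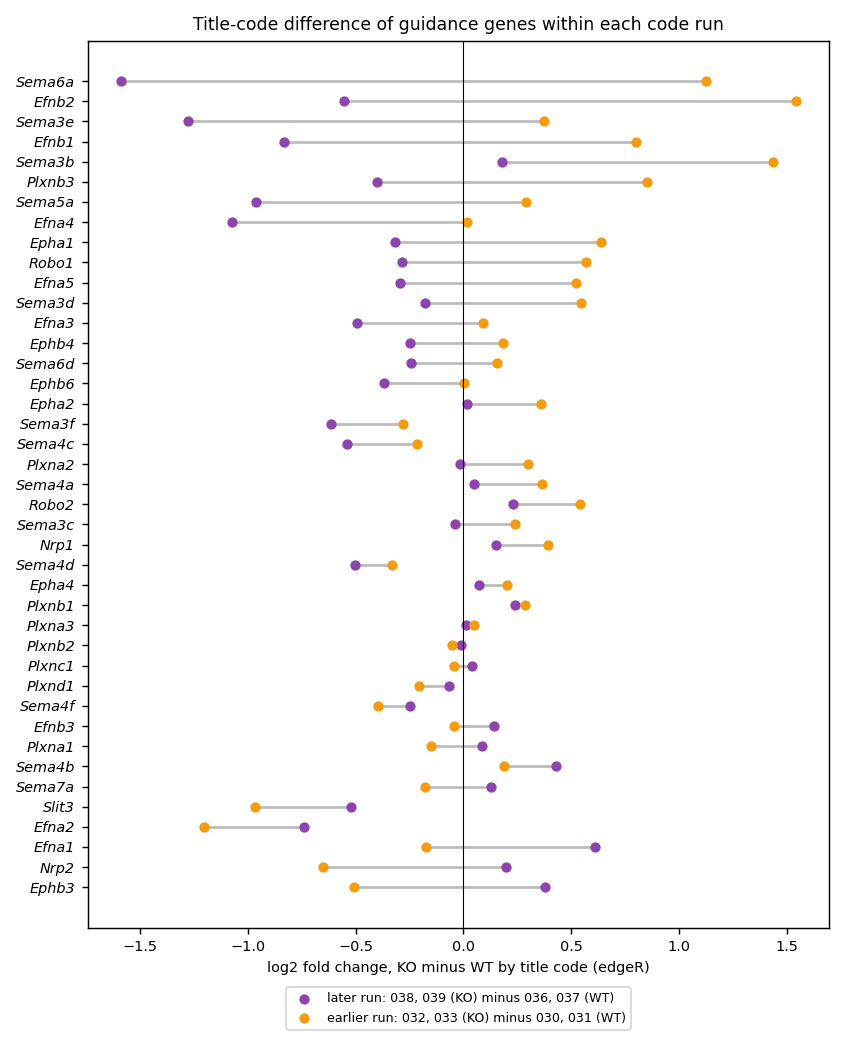
Log2 fold change, KO minus WT by title code, of the 41 tested guidance genes within the later run (purple) and within the earlier run (orange), joined by a line per gene and ordered by the gap. Efnb2 lies at −0.55 in the later run and 1.54 in the earlier run, whereas Efna1 and Nrp2, near the bottom, are ordered the other way.

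Among 80 co-receptors, effectors and other guidance genes listed beside the members, 61 could be tested by description, of which 2 were higher and 0 lower in KO. The 2 are 3.28% of the 61, where 1.43% of all genes were higher and 0.595% lower. Met, the hepatocyte growth factor receptor and a partner of B plexins, had 45.4, 42.0, 51.4 and 50.6 CPM in RMN038, RMN039, RMN036 and RMN037, against 34.7, 31.5, 28.6 and 23.4 CPM in RMN032, RMN033, RMN030 and RMN031. The runs did not overlap, and the log2 fold change was 0.72 (SE 0.15, edgeR adjusted p = 0.0220). Flrt3, a membrane protein that binds Unc5 receptors and Robo1, had 555, 535, 565 and 531 CPM in the later libraries in the same order, against 461, 451, 370.4 and 466 CPM in the earlier ones. KO exceeded WT by 0.37 on the log2 scale (SE 0.08, edgeR adjusted p = 0.0345). Met came from 27 tested genes of the semaphorin and plexin co-receptors and effectors, and Flrt3 from 8 tested netrins, repulsive guidance molecules and their receptors. Of the effectors of Eph receptors and ephrins 0 of 16 passed, and of the effectors of Robo receptors 0 of 10. Unadjusted, 13 of the 61 (21.3%) had p under 0.05, against 12.6% of all genes. Each call held in 6 of 14 alternatives. That of Met was lost without each of RMN030, RMN031, RMN033, RMN036, RMN037 and RMN038. The call of Flrt3 was lost without each of RMN032, RMN033, RMN036, RMN037, RMN038 and RMN039, with an adjusted p up to 0.102. Both calls were also lost without RMN030 and RMN031 together (edgeR adjusted p = 0.128 for Met and 0.0742 for Flrt3) and with the replicate block (0.0607 and 0.0835). By title, in the undisputed libraries and in the difference between runs, 0 of 61, 62 and 66 partners passed the edgeR test, where 0%, 0.794% and 0.0186% of all genes did. Unadjusted, 4.92%, 14.5% and 10.6% of the partners had p under 0.05, against 4.59%, 11.3% and 7.93% of all genes. Beside Met and Flrt3, the smallest p-values by description belonged to Srgap2 (log2 −0.43, edgeR adjusted p = 0.0976) and Sdcbp (log2 0.32, adjusted p = 0.120), an effector of Robo receptors and a scaffold that binds ephrin-Bs. By title they belonged to Ranbp9, Abl2, Vegfa and Cd72, with log2 differences of 0.55, 0.35, −1.03 and −0.19, all at an edgeR adjusted p of 0.998. In the undisputed libraries Met, Abl2, Flrt3 and Abl1 had 0.79, 0.53, 0.43 and −0.79, with adjusted p from 0.195 to 0.306. Abl1 ran from −1.32 without RMN039 (adjusted p = 0.0051) to −0.41 without RMN038 (adjusted p = 0.719), and it was called in 2 of 8 alternatives. Abl2 and Flrt3 were each called in 1 of 8, both without RMN031, and Met in 0 of 8. For the difference between runs Rgmb, a repulsive guidance molecule, had 1.35, and Abl2, Tyrobp and Rras2 had 0.60, 0.76 and 0.93, with adjusted p from 0.328 to 0.505. Rgmb was called by DESeq2 (adjusted p = 0.0410) and by edgeR without the filter (0.0188), that is in 2 of 12 alternatives, over which its adjusted p reached 0.699.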

How the data were processed

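Per the submitters' processing notes, reads were processed with STAR 2.5.2b and featureCounts 1.5.0 on GRCm38 (mm10). The strand setting and annotation release are not given in the sources used here. Per-gene raw counts make up the table the authors deposited. Its column totals differ, as unnormalized counts do, and 0 columns were left unused. Symbols matched 25080 of 25247 identifiers. CPM is counts over the column total, and TPM uses union exon lengths of GENCODE M21. Tests used edgeR 4.0.16 in R 4.3.3 (filterByExpr, TMM, robust quasi-likelihood, two-sided, KO minus WT), with Benjamini-Hochberg adjustment over all genes tested and a threshold of 0.05. SEs derive from the F statistic. Contrasts within a run or within a title genotype came from a fit to all 8 libraries, which shares its estimate of the spread. The scripts were tested on simulated counts. Libraries differing in depth between 11051402 and 18966195 counts give low members wide errors.

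Alternatives were RLE factors, no filter, DESeq2 1.42.0, limma 3.58.1 voom, each library left out, RMN030 and RMN031 left out together, the code run as a covariate and the replicate number as a block. Genes named with values are the members past the threshold, the 3 highest in TPM of each family, the 3 smallest p in each fit and, of 80 guidance partners in 4 lists, up to 4 with the smallest p in each fit. Others are said to be chosen after their values were seen. The members and lists were chosen with earlier results of these data known.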

Additional observations from a re-analysis of the deposited data

Results flagged for a closer look

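Of 92 groups of 4 libraries examined, 7 had 1 library far from the others by Dixon's criterion at 95%, where chance gives about 4.6. Among libraries labelled KO by title, Sema3c was at 72.6 CPM in RMN033, against 83.2 to 85.0 CPM in the other 3. Sema4b was at 63.5 CPM in RMN039, against 51.6 to 52.5 CPM. Sema6d was at 295 CPM in RMN032, against 239 to 242 CPM. Sema7a was at 42.3 CPM in RMN038, against 55.2 to 57.1 CPM. Among libraries labelled WT by title, Slit3 was at 9.77 CPM in RMN037, against 1.07 to 1.75 CPM in the other 3. Among libraries labelled WT by description, Sema3f was at 7.72 CPM in RMN032, against 10.8 to 11.2 CPM, and Sema4b was at 37.0 CPM in RMN030, against 50.8 to 51.7 CPM.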

How the results depend on the processing

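The count of members called by title was 0 under every alternative run. By description 3 members were called by edgeR, 6 by DESeq2, 1 by limma voom (Epha4) and 1 to 2 with a library left out. In the undisputed libraries the count was 0 by edgeR, 1 by DESeq2, 1 by limma voom, 2 without the filter and 1 to 2 with a library left out, where the lone library of a genotype is assumed to vary like the other group. All genes called there were 263 to 629 (1.65 to 4.02%), against 117 in the full set. For the difference between runs it was 0, and 1 without the filter. The log2 fold change of Epha4 by title, 0.12, became −0.25 without RMN030 and RMN031, and −0.0264, −0.0043 and −0.0358 without RMN030, RMN031 or RMN039 alone. With 1 library left out it ran from −0.0358 to 0.32. That of Slit3 by title, −0.61, ran from −1.04 to 0.69, the highest being without RMN037. The cause was not tested, and in these refits fewer libraries cannot be told apart from the loss of the particular ones left out. Same-numbered libraries deviated together only weakly, with correlations of 0.0576 to 0.111 by title and −0.0025 to 0.0264 by description, and 1 of 4 and 0 of 4 numbers gave the best match. By title same-numbered libraries share a code run and by description they do not, so these values cannot show whether libraries were prepared in pairs. With the replicate block 0 members were called by title and 1 (Epha4) by description, where Epha1 and Slit3 had adjusted p-values of 0.0992 and 0.0744. Among all genes the description count was 296 by edgeR, 660 by DESeq2, 298 by limma voom, 174 with the replicate block and 140 to 219 with a library left out. The undisputed count was 117 by edgeR, 305 by DESeq2, 134 by limma voom and 440 without the filter. That for the difference between runs was 3, 97, 3 and 178 in the same order. Low counts limit Slit3 and the members under 1 CPM.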

Other observations

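Counts of members too low to test came mostly from 1 or 2 libraries, a pattern chosen after the values were seen. Plxnb3, a plexin, had 23 counts in RMN038 and 36 in RMN037, against 0 to 3 in the other 6 libraries. Sema6b, a transmembrane semaphorin, had 25 counts in RMN031, against 0 to 2 elsewhere. Slit2, a Robo ligand, had 18 counts in RMN038, 3 in RMN030 and 0 elsewhere. Epha7, an Eph receptor, had all its 12 counts in RMN039, and Sema3a, a secreted semaphorin, all its 8 in RMN030. A count of 0 allows up to 3 counts in a library, which is 0.158 to 0.271 CPM at these depths. Across the 40 tested members, RMN032 held the highest CPM for 10 and RMN037 for 9, whereas RMN030 and RMN038 each held the lowest for 9.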
